A study of Mus musculus with 16 samples.

Results

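A set of 9 noncoding genes was followed across cultured and freshly collected mouse macrophages. They were picked by name: Malat1, Neat1 and Kcnq1ot1, whose RNAs stay in the nucleus, Gas5, Snhg1, Snhg8, Snhg12 and Epb41l4aos, which carry small nucleolar RNA (snoRNA) genes, and Dleu2, which carries microRNA genes. They are a small part of the 47643 genes in the count files, of which 20730 had a count in any of the 16 libraries. All 9 had counts in every library and passed the filter on low counts in every fit. The cells came from wild type C57BL/6 mice, and no treatment, transgene or deletion is named for any group. Alveolar macrophages kept in culture make up the first 3 kinds of library. Lavage pool 1 was sampled at passages 13 and 8 and lavage pool 2 at passages 10 and 5, and the number of mice behind a pool is not stated. The cultures called mexAM were grown from mice 1, 2 and 4 and their passage is not given. The same 3 mice gave BALF (cells washed from the lung airways), PLF (cells washed from the peritoneal cavity) and BMDM (macrophages grown from bone marrow), so each of these 4 groups has 3 libraries. Their age and sex are not stated. That libraries come from separate animals rests on the mouse numbers alone.

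Long noncoding RNAs act as RNA. Malat1 sits in nuclear speckles, the stores of splicing proteins, and the long form of Neat1 is the scaffold of paraspeckles, nuclear bodies that hold RNA and RNA-binding proteins. Kcnq1ot1 is transcribed antisense to Kcnq1 from the paternal chromosome, where it silences neighbouring imprinted genes. The snoRNA hosts are spliced, and the snoRNAs cut out of their introns guide the modification of ribosomal RNA, while the spliced host RNA is often short-lived in the cytoplasm. Dleu2 is the host of miR-15a and miR-16-1, microRNAs best known as restraints on the cell cycle in B cells.

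The libraries were made by QuantSeq, which primes with oligo-dT and reads near the 3′ end, so the ends of these RNAs are shown with the values they bear on. The longest adenine run of the main Malat1 transcript, of 6983 bases, lies at chr19:5795964-5796023 (GRCm38, minus strand). It is the genome-encoded tail of the mature RNA, followed by the start of the tRNA-like RNA that is cut off there, and the capitals mark the run of 12 adenines, which begins 310 bases before the annotated end.
Malat1: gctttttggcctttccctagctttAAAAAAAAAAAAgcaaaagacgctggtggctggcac
A run of at least 12 adenines is present in 4.07% of the 141767 GENCODE M21 transcripts and in 19.7% of the 7040 that reach 5000 bases. Neat1 has a short form with a poly(A) tail and a long form without one, and the last 60 bases of both are shown. In the short form (chr19:5842307-5842366, minus strand) the capitals mark the polyadenylation signal AATAAA. In the long form (chr19:5824708-5824767, minus strand) they mark runs of at least 4 adenines.
Neat1, short form: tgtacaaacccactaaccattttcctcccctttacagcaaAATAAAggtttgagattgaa
Neat1, long form: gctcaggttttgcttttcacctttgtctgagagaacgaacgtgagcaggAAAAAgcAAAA
The signal was searched on the transcript strand only, and 27.2% of 141515 transcripts hold it in their last 60 bases. Kcnq1ot1 spans 93092 bases as 1 exon and holds 8 runs of at least 12 adenines, the longest of 41, in capitals here (chr7:143226921-143227009, minus strand).
Kcnq1ot1: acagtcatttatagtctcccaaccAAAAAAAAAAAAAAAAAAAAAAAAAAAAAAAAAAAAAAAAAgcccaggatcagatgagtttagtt
Runs of at least 20 adenines occur in 0.675% of all transcripts and in 3.11% of those of at least 5000 bases. The counts do not say where in a gene a read lay, so a read primed at an inner run and a read primed at a tail cannot be told apart.

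The start sites are shown for the other end. Messenger RNAs of the translation machinery begin with a tract of C and T, the terminal oligopyrimidine (TOP) tract, and Gas5 is a known TOP RNA. Start sites of 7 of the 9 genes were taken from the RefSeq table (GRCm38.p6). Each line shows 20 bases before the start and 30 from it, and the capitals mark the unbroken run of C and T that holds the start or the base before it.
Gas5 (chr1:161035146-161035195, plus strand): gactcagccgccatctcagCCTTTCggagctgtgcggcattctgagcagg
Snhg8 (chr3:123508307-123508356, minus strand): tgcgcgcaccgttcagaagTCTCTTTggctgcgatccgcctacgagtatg
Snhg12 (chr4:132308658-132308707, plus strand): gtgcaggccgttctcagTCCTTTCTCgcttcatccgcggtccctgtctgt
Snhg1 (chr19:8723467-8723516, plus strand): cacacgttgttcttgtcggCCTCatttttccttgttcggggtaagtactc
Malat1 (chr19:5802643-5802692, minus strand): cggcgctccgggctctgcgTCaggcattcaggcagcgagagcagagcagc
The runs were 6 bases long in Gas5, 7 in Snhg8, 9 in Snhg12 and 4 in Snhg1, against 2 in Malat1. Over the 32851 start sites of the table, 10.7% had a run of at least 6 bases, 7.49% of at least 7, 3.92% of at least 9 and 23.8% of at least 4. A further listed start of Gas5, upstream, had a run of 1, as did Dleu2, and Kcnq1ot1 had none. These matches describe the sequences and were not tested against the values.

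Dleu2 carries 2 microRNA genes in an intron on chromosome 14, and their 5p arms have the same seed (bases 2 to 8, in capitals), which is why the pair is shown.
mmu-miR-15a-5p (chr14:61632075-61632096, minus strand): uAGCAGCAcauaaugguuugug
mmu-miR-16-5p (chr14:61631936-61631957, minus strand): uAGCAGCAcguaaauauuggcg
The microRNA genes themselves took 5 counts over all 16 libraries. Of 25 snoRNA genes inside the hosts, 10 in Gas5, 8 in Snhg1, 5 in Snhg12 and 1 each in Snhg8 and Epb41l4aos, 24 had no count in any library. The values below are therefore those of the host RNAs.

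The libraries held 827791 to 2884679 counts assigned to genes, and a single count was worth at most 1.21 CPM (counts scaled to a library total of 1000000 in genes). The markers of each labelled cell type were present. The 12 alveolar macrophage markers summed to 6381 to 8000 CPM in later and 6653 to 6746 CPM in earlier pool libraries, 7745 to 11410 CPM in mexAM and 10220 to 14210 CPM in BALF, against 453.6 to 519.9 CPM in PLF and 396 to 574 CPM in BMDM. PLF also held lymphocytes and mast cells: 9 of 9 B cell markers were detected, at a sum of 2320 to 2629 CPM, and 6 of 6 mast cell markers at 1895 to 2074 CPM. Erythroid and platelet markers summed to 1600 to 2087 CPM in PLF and 843 to 948 CPM in BMDM, and BMDM held 2119 to 5606 CPM of neutrophil markers. Gm42418, a ribosomal RNA locus, took 3.81% to 13.6% of the counts in genes. In such bulk samples, fewer cells of a type and less RNA per cell cannot be told apart.

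**Figure D1:**
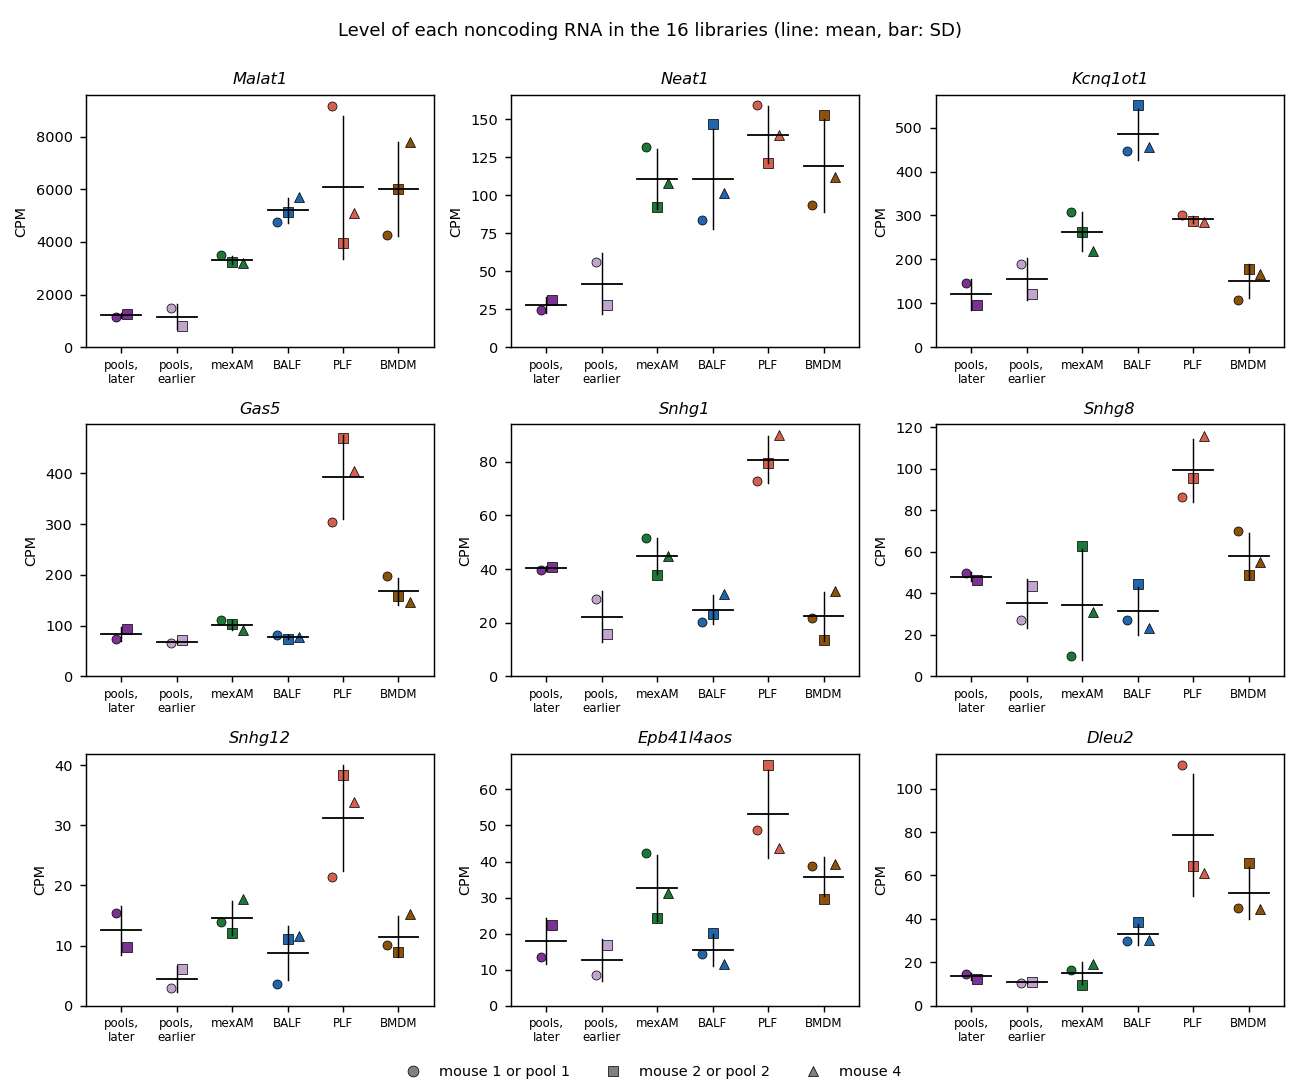
Level (CPM, vertical axes from 0) of each noncoding RNA in the 16 libraries, 1 point per library, with the group mean as a line and the SD as a bar. Malat1 and Neat1 were low in all 4 pool libraries, the 5 snoRNA hosts were highest in PLF, and Kcnq1ot1 was highest in BALF, at 447 to 551 CPM.

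Across the 4 groups of mice 1, 2 and 4, 7 of the 9 RNAs differed somewhere (edgeR quasi-likelihood F test, Benjamini-Hochberg adjusted p under 0.05, the threshold for a call throughout), where 70.9% of the 10011 genes tested did. Malat1 (edgeR adjusted p = 0.0564) and Neat1 (0.592) were not called. Without mouse 1, Malat1 was called (0.00840), and without mouse 4, Snhg8 was not (0.298). Between mexAM and BALF, Epb41l4aos was higher and Malat1, Kcnq1ot1 and Dleu2 were lower in mexAM. These 4 of 9 stand beside 30.0% of all genes, 15.2% higher and 14.8% lower. Between mexAM and BMDM, Snhg1 and Kcnq1ot1 were higher and Malat1, Gas5 and Dleu2 lower in mexAM, 5 of 9 where 44.6% of genes were called, 21.5% higher and 23.0% lower. Against PLF, mexAM was lower in 7 of 9, all but Neat1 and Kcnq1ot1, where 57.9% of genes were called, 28.4% higher and 29.6% lower. BALF differed from BMDM in 3 of 9, with Kcnq1ot1 higher and Gas5 and Epb41l4aos lower in BALF, where 37.4% of genes were called, 18.2% higher and 19.3% lower. From PLF it differed in 7 of 9, with Kcnq1ot1 higher and the 5 hosts and Dleu2 lower in BALF, where 40.3% of genes were called, 19.5% higher and 20.8% lower. PLF was higher than BMDM in Gas5, Snhg1, Snhg12 and Kcnq1ot1, 4 of 9 where 36.5% of genes were called, 18.0% higher and 18.4% lower. In BALF against BMDM the share among the 9 was no higher than that over all genes. Comparisons that share a group are not independent of each other.

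**Figure D2:**
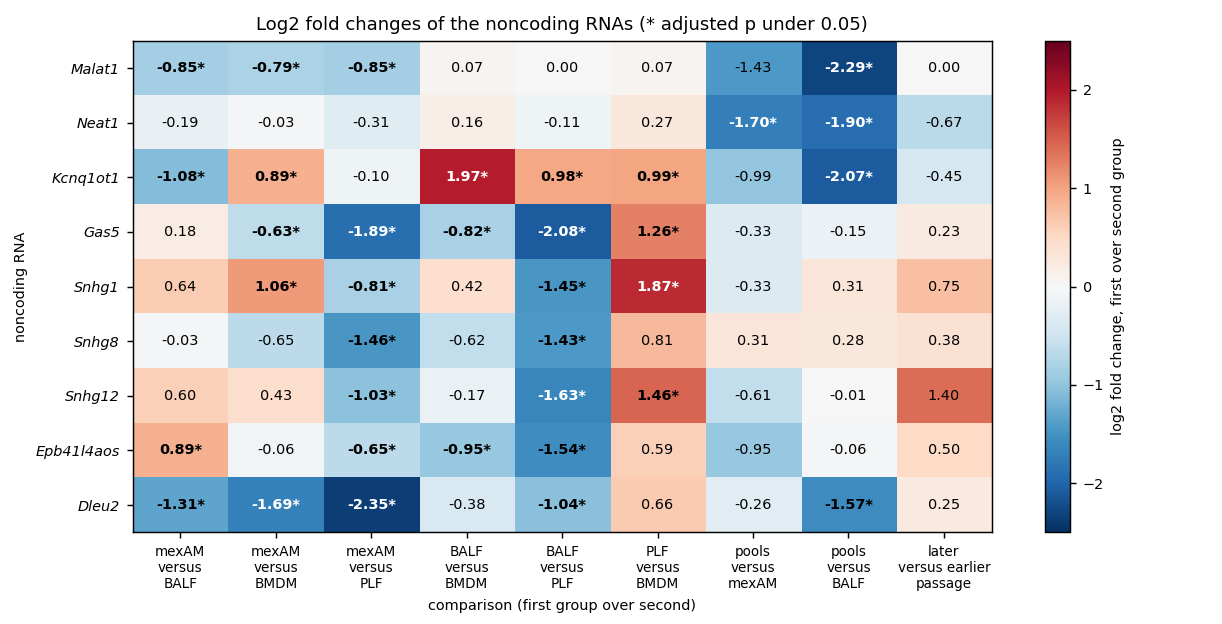
Log2 fold changes of the 9 RNAs (rows) in 9 comparisons (columns), the first group of each comparison over the second, with red for higher and blue for lower in the first group and an asterisk for an adjusted p under 0.05. The column of mexAM over PLF is negative for all 9 RNAs, from -2.35 for Dleu2 to -0.10 for Kcnq1ot1, and the 5 snoRNA hosts lie between -0.03 and 0.89 in mexAM over BALF.

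Malat1 (ENSMUSG00000092341, lincRNA, chr19:5795690-5802672, minus strand) had a lower level in cultured alveolar macrophages than in every other kind of library. In pool 1 it stood at 1147 CPM at passage 13 and 1484 CPM at passage 8, and in pool 2 at 1263 CPM at passage 10 and 811 CPM at passage 5. The mexAM libraries of mice 1, 2 and 4 had 3506, 3224 and 3212 CPM, and BALF of the same mice 4748, 5147 and 5698 CPM. PLF had 9161, 3961 and 5092 CPM, and BMDM 4247, 6009.6 and 7792 CPM. Every pool library lay below every mexAM library, and every mexAM library below every BALF, PLF and BMDM library, while the last 3 groups overlapped.

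The log2 change of Malat1 was -0.85 ± 0.30 in mexAM over BALF (SE of the edgeR fit, adjusted p = 0.0426), -0.79 ± 0.30 in mexAM over BMDM (0.0443) and -0.85 ± 0.30 in mexAM over PLF (0.0238). These calls were near the threshold. With mouse as a block the adjusted p was 0.0537 against BALF and 0.0541 against BMDM. With library totals as the scaling the edgeR adjusted p was 0.0951 against BALF. With reads outside genes added to those totals it was 0.1506 against BALF, 0.0671 against BMDM and 0.0827 against PLF. Leaving out any of the 6 libraries ended the call against BALF (adjusted p from 0.0763 to 0.114), and leaving out BMDM of mouse 2 or 4 or any mexAM library ended that against BMDM (0.0704 to 0.185). Against PLF the change was -0.37 (edgeR adjusted p = 0.232) without PLF of mouse 1, and the call also ended without mexAM of mouse 2 (0.0502) or mouse 4 (0.0659). PLF of mouse 1 had 133467 CPM of Gm42418, against 40800.2 and 38115 CPM in PLF of mice 2 and 4, and BMDM, at 59529.9, 119606 and 124753 CPM, had the same order in Gm42418 as in Malat1. In mexAM, BALF and PLF the orders of the 3 libraries differed. A refit with Gm42418 and the mitochondrial transcripts left out of the counts and totals ended none of these calls of Malat1. That refit changes only the scaling, so the part of this locus in the Malat1 levels was not tested.

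In the pool cultures, with the 2 passages of each pool summed to 1 column, Malat1 was -2.29 ± 0.35 relative to BALF (edgeR, adjusted p = 9.66e-05) and kept that call in all 14 alternatives. Relative to mexAM it was -1.43 ± 0.34 (adjusted p = 0.0551), which was no call in the edgeR fit, while DESeq2 gave an adjusted p of 0.00532.

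Neat1 (ENSMUSG00000092274, lincRNA, chr19:5824708-5845478, minus strand), next to Malat1 on the chromosome, was low in the pools alone. It stood at 24.2 CPM at passage 13 and 55.9 CPM at passage 8 in pool 1, and at 31.2 CPM at passage 10 and 27.8 CPM at passage 5 in pool 2. In mexAM it had 132, 92.5 and 108 CPM, in BALF 83.5, 147 and 101 CPM, in PLF 159, 121 and 139 CPM and in BMDM 93.3, 153 and 112 CPM. All 4 pool libraries lay below all 12 libraries of mice 1, 2 and 4, whose 4 groups overlapped. Relative to mexAM the summed pools were at -1.70 ± 0.28 (edgeR, adjusted p = 0.00871), and relative to BALF at -1.90 ± 0.28 (7.28e-05). Neat1 was the 1 of 9 called between pools and mexAM, where 0.698% of 10602 genes were called, 0.519% higher and 0.179% lower. Against BALF, Malat1, Neat1, Kcnq1ot1 and Dleu2 were lower in the pools, 4 of 9 where 26.0% of genes were called, 13.6% higher and 12.4% lower. The call against mexAM ended without pool 1 (edgeR adjusted p = 0.0740), without pool 2 (0.168) and with the earlier passages alone (-1.33, 0.121). DESeq2 called 3 of the 9 between pools and mexAM.

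Kcnq1ot1 (ENSMUSG00000101609, antisense RNA, chr7:143203458-143296549, minus strand, inside the Kcnq1 gene on the opposite strand) had its highest level in BALF. The pool libraries had 146 CPM at passage 13 and 189 CPM at passage 8 in pool 1, and 95.7 CPM at passage 10 and 121 CPM at passage 5 in pool 2. In mexAM it had 308, 263 and 218 CPM, against 447, 551 and 455 CPM in BALF. PLF had 300.5, 288.1 and 286 CPM and BMDM 107, 178 and 167 CPM. No library of another group reached the BALF levels, PLF and mexAM overlapped, and so did BMDM and the pools.

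Kcnq1ot1 fell by 1.08 ± 0.22 on the log2 scale in mexAM relative to BALF (edgeR, adjusted p = 0.00120) and was 0.89 ± 0.22 above BMDM in mexAM (0.00292). BALF was above BMDM by 1.97 ± 0.22 (2.05e-06) and above PLF by 0.98 ± 0.22 (0.00151), and PLF above BMDM by 0.99 ± 0.22 (0.00170). The pools were at -2.07 ± 0.27 relative to BALF (1.51e-05) and at -0.99 ± 0.26 relative to mexAM, where the adjusted p was 0.0731. Neither mouse as a block, nor another scaling, nor any library left out ended a call of Kcnq1ot1 among the 4 groups. The share of reads outside genes as a covariate ended the call of mexAM against BALF (-0.23, adjusted p = 0.762, edgeR) and of PLF against BMDM (0.58, 0.0967). Kcnq1, on the other strand of the locus, had 10 counts in all libraries together, against 6269 for Kcnq1ot1. Whether the counting used strand is not given in the sources used here.

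Of 11 listed genes of the imprinted domain around Kcnq1ot1, 6 had enough counts to test. In mexAM relative to BALF, where 30.0% of all genes were called, 3 of them rose and none fell. They were Tspan32, a tetraspanin, at 83.1 ± 6.21 CPM in mexAM and 9.13 ± 4.45 CPM in BALF (log2 2.94 ± 0.29), Nap1l4, a histone chaperone, at log2 1.13 ± 0.25, and Cd81, another tetraspanin, at 1.02 ± 0.31. The median of the 6 was 0.67, against 0.01 over all genes. The same 3 genes were also higher in mexAM than in BMDM (Tspan32 2.48, Nap1l4 1.09, Cd81 1.07), where Kcnq1ot1 was higher in mexAM, and than in PLF (Tspan32 1.97, Nap1l4 1.21, Cd81 1.45), where Kcnq1ot1 was not called. Over all genes, 21.5% were higher in mexAM than in BMDM and 28.4% were higher in mexAM than in PLF. Cdkn1c, a cell cycle inhibitor and a well-known target of the silencing, had no count in mexAM, BALF or the pools, against 8.26 ± 1.29 CPM in PLF and 9.35 ± 6.89 CPM in BMDM (SD, n = 3 each).

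The snoRNA hosts had their highest levels in PLF, as Malat1, Neat1 and Dleu2 also did by group mean. Gas5 (ENSMUSG00000053332, chr1:161034422-161038539, plus strand) had 74.5 CPM at passage 13 and 66.5 CPM at passage 8 in pool 1, and 94.3 CPM at passage 10 and 71.3 CPM at passage 5 in pool 2. The mexAM libraries had 111, 103 and 91.8 CPM, BALF 81.7, 73.1 and 77.9 CPM, PLF 305, 470.0 and 404 CPM and BMDM 198, 158 and 146 CPM. The 4 groups of mice 1, 2 and 4 did not overlap, in the order PLF, BMDM, mexAM and BALF, and the pools overlapped with BALF and mexAM.

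The log2 change of Gas5 was -1.89 ± 0.19 in mexAM over PLF (edgeR, adjusted p = 2.54e-07), -2.08 ± 0.20 in BALF over PLF (1.96e-07) and 1.26 ± 0.19 in PLF over BMDM (4.69e-05). Relative to BMDM it was at -0.82 ± 0.19 in BALF (0.00270) and at -0.63 ± 0.19 in mexAM (0.0109), the last of which lost its call without mexAM of mouse 4 (0.0621). No call was made between lung cells: mexAM over BALF gave 0.18 ± 0.19 (0.502) and pools over mexAM -0.33 ± 0.21 (0.489). The start of the Gas5 gene overlaps Zbtb37 on the other strand, which had 235 counts in all libraries against 3978 for Gas5.

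Snhg1 (ENSMUSG00000108414, chr19:8723475-8726443, plus strand) had 39.6 CPM at passage 13 and 28.9 CPM at passage 8 in pool 1, and 40.9 CPM at passage 10 and 15.7 CPM at passage 5 in pool 2. It stood at 51.7, 38.0 and 44.9 CPM in mexAM, 20.4, 23.3 and 30.9 CPM in BALF, 72.7, 79.4 and 90.0 CPM in PLF and 21.8, 13.7 and 31.9 CPM in BMDM. PLF was above all other libraries, mexAM above all BALF and BMDM libraries, and the pools overlapped with mexAM, BALF and BMDM.

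In mexAM, Snhg1 was at 1.06 ± 0.26 relative to BMDM (edgeR, adjusted p = 0.00323), at -0.81 ± 0.25 relative to PLF (0.00968) and at 0.64 ± 0.27 relative to BALF, which was not called (0.0827). The call against PLF ended with reads outside genes in the library totals (0.0607). BALF over PLF gave -1.45 ± 0.27 (3.15e-04) and PLF over BMDM 1.87 ± 0.26 (2.70e-05). Slc3a2, a subunit of amino acid transporters that starts 106 bases away on the other strand, had 270 ± 32.8 CPM in mexAM and 852 ± 308 CPM in BALF (SD, n = 3 each), a log2 change of -1.86 ± 0.26 (4.20e-05), where Snhg1 was not called. Slc3a2 was called in the direction of Snhg1 in mexAM over PLF (-1.11) and PLF over BMDM (1.04), and in the opposite direction in BALF over PLF (0.75).

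Snhg8 (ENSMUSG00000104960, chr3:123507552-123508404, minus strand) had 86.3, 95.4 and 116 CPM in PLF, above every other library. Pool 1 had 49.6 CPM at passage 13 and 27.0 CPM at passage 8, and pool 2 46.5 CPM at passage 10 and 43.5 CPM at passage 5. BALF had 27.0, 44.6 and 23.2 CPM and BMDM 70.1, 48.7 and 55.2 CPM. The mexAM libraries, with 9.87, 62.8 and 30.9 CPM from 17, 129 and 75 counts, spread more than those of any other group. Snhg8 was at -1.46 ± 0.42 in mexAM relative to PLF (edgeR, adjusted p = 0.00865) and at -1.43 ± 0.44 in BALF relative to PLF (0.0185), a call that ended without BALF of mouse 1 (0.0641) or 4 (0.0695) or PLF of mouse 4 (0.0620). Without mexAM of mouse 2 a difference from BMDM, otherwise at -0.65 ± 0.43 (0.234), became -1.41 (0.00414).

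Snhg12 (ENSMUSG00000086290, chr4:132308623-132311024, plus strand) rested on few counts, from 3 to 55 per library. It had 15.4 CPM at passage 13 and 2.89 CPM at passage 8 in pool 1, and 9.71 CPM at passage 10 and 6.04 CPM at passage 5 in pool 2. In mexAM it had 13.9, 12.2 and 17.7 CPM, in BALF 3.60, 11.2 and 11.6 CPM, in PLF 21.4, 38.3 and 33.9 CPM and in BMDM 10.2, 8.91 and 15.3 CPM. PLF lay above all other libraries, and the rest overlapped except mexAM and BALF. The log2 change was -1.03 ± 0.33 in mexAM over PLF (edgeR, adjusted p = 0.0121), -1.63 ± 0.37 in BALF over PLF (0.00208) and 1.46 ± 0.34 in PLF over BMDM (0.00274). With reads outside genes in the library totals the first of these was -0.80 and not called (0.0528).

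Epb41l4aos (ENSMUSG00000087590, a lincRNA gene of 1095 bases on the plus strand) was the 1 host of 5 called between mexAM and BALF. In unscaled CPM, Gas5, Snhg1 and Snhg12 also had every mexAM library above every BALF library. With library totals the median of all genes was itself 0.22 higher in mexAM on the log2 scale. The TMM-scaled changes were 0.18 for Gas5, 0.64 for Snhg1 and 0.60 for Snhg12, none of them called. The share of all genes that separate in this way was not computed, and the hosts were not tested against each other. Epb41l4aos had 13.4 CPM at passage 13 and 8.67 CPM at passage 8 in pool 1, and 22.5 CPM at passage 10 and 16.9 CPM at passage 5 in pool 2. In mexAM it had 42.4, 24.3 and 31.3 CPM, against 14.4, 20.3 and 11.6 CPM in BALF. PLF had 48.7, 66.9 and 43.8 CPM and BMDM 38.7, 29.5 and 39.2 CPM. Every mexAM library lay above every BALF library, while the pools overlapped with BALF and BMDM with mexAM. The rise in mexAM over BALF was 0.89 ± 0.28 on the log2 scale (edgeR, adjusted p = 0.0242), and it lost its call without BALF of mouse 1 (0.0838), BALF of mouse 4 (0.0945) or mexAM of mouse 1 (0.0988). The pools were at -0.06 ± 0.34 relative to BALF (0.938) and at -0.95 ± 0.30 relative to mexAM (0.149).

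In BALF, Epb41l4aos was at -0.95 ± 0.28 relative to BMDM (edgeR, adjusted p = 0.0127) and at -1.54 ± 0.28 relative to PLF (2.61e-04), and in mexAM at -0.65 ± 0.25 relative to PLF (0.0318). The call against BMDM ended without BALF of mouse 1 (0.0521) or 4 (0.0603). That of mexAM against PLF ended without mexAM of mouse 2 (0.135) or 4 (0.0974) or PLF of mouse 2 (0.133). It also ended with reads outside genes in the library totals (0.1785).

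Summed over the 5 hosts, PLF held 534, 750.0 and 688 CPM, against 259 to 338 CPM in BMDM. The mexAM libraries held 229, 240.4 and 217 CPM, against 147, 172 and 155 CPM in BALF. These sums are in unscaled CPM, and the 5 hosts were not tested as a set. B cell markers were also highest in PLF and next in BMDM. They reached 2320 to 2629 CPM in PLF, against 105 to 138 CPM in BMDM with 8 of 9 detected and Cd79a, a B cell receptor subunit, at 0. They were at 1.46 to 2.88 CPM in mexAM with 3 of 9 detected and at 2.03 to 4.81 CPM in BALF with 6 of 9 detected, and Cd79a, Ighd and Vpreb3 were at 0 in both. T and NK cell markers were at 90.2 to 94.3 CPM in PLF with 9 of 9 detected, against 0.412 to 1.16 CPM in mexAM and 0 to 1.20 CPM in BALF with 3 of 9 each. Mast cell markers were at 1895 to 2074 CPM in PLF, against 5.87 ± 1.82 CPM in BMDM (SD, n = 3). Erythroid and platelet markers, at 1600 to 2087 CPM in PLF and 843 to 948 CPM in BMDM, were at 1.46 to 5.81 CPM in mexAM and 39.6 to 644 CPM in BALF. The part of these cells in the host levels of PLF was not tested.

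Of 17 tested translation factors with TOP messenger RNAs, 9 were higher and none lower in PLF than in BMDM (median log2 0.60, all genes -0.01), among them Eef1g, a subunit of the elongation factor, at 190 ± 17.9 CPM in PLF and 84.4 ± 11.1 CPM in BMDM. In mexAM 9 of the 17 were lower than in PLF and none higher (median -0.60, all genes -0.02), with Eef1a1, the elongation factor that brings transfer RNA to the ribosome, at 123 ± 45.9 CPM in mexAM and 336 ± 86.0 CPM in PLF. In BALF 8 were lower than in PLF and none higher (median -0.58), with Eef1b2 at log2 -1.17 ± 0.19. In mexAM over BALF 1 rose, 3 fell and 13 were not called. Over all genes, 36.5% were called between PLF and BMDM and 57.9% between mexAM and PLF. The shares were 40.3% between BALF and PLF and 30.0% between mexAM and BALF.

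Among 8 tested hosts outside the set, Zfas1, a snoRNA host antisense to Znfx1, had 18.6 ± 2.57 CPM in mexAM, 6.40 ± 2.52 CPM in BALF and 93.9 ± 23.5 CPM in PLF (SD, n = 3 each). Its log2 change was -2.27 ± 0.25 in mexAM over PLF, -3.65 ± 0.31 in BALF over PLF and 1.38 ± 0.33 in mexAM over BALF, all called. In each comparison with PLF, 2 of the 8 were called, all with PLF higher. Over all genes, 57.9% were called between mexAM and PLF, 40.3% between BALF and PLF and 36.5% between PLF and BMDM. The shares were 37.4% between BALF and BMDM and 30.0% between mexAM and BALF. Of 18 tested proteins of snoRNA particles and ribosome assembly, 8 were higher and none lower in PLF than in BMDM (median 0.56), 7 higher and none lower in BALF than in BMDM, and 1 higher and 1 lower in mexAM than in BALF. Nop58, a core protein of box C/D particles, had 119 ± 12.3 CPM in PLF and 51.1 ± 18.9 CPM in BMDM. Of 16 factors of nonsense-mediated decay, the pathway that degrades spliced Gas5, 5 were higher and none lower in PLF than in BMDM, and Smg1, its kinase, fell in mexAM relative to BALF, at 28.4 ± 5.85 CPM in mexAM and 66.1 ± 5.55 CPM in BALF, as the only one of the 16 called there.

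Dleu2 (ENSMUSG00000097589, chr14:61602839-61682373, minus strand) was low in all cultured alveolar macrophages. Pool 1 had 14.8 CPM at passage 13 and 10.6 CPM at passage 8, and pool 2 12.5 CPM at passage 10 and 10.9 CPM at passage 5. The mexAM libraries had 16.3, 9.73 and 19.4 CPM, against 30.0, 38.6 and 30.1 CPM in BALF. PLF had 111, 64.2 and 61.0 CPM and BMDM 45.0, 65.8 and 44.7 CPM. No pool or mexAM library reached the level of any BALF library, and no BALF library that of any BMDM or PLF library.

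In mexAM, Dleu2 was at -1.31 ± 0.32 relative to BALF (edgeR, adjusted p = 0.00524), at -1.69 ± 0.30 relative to BMDM (2.07e-04) and at -2.35 ± 0.30 relative to PLF (4.59e-06), the largest change of the 9 RNAs in any pair. In BALF it was at -1.04 ± 0.29 relative to PLF (0.00868), a call that ended without PLF of mouse 1 (-0.65, 0.0635), the PLF library high in Gm42418. Though their libraries did not overlap, BALF was not called against BMDM (-0.38 ± 0.30, 0.347). PLF was at 0.66 ± 0.28 relative to BMDM (0.0711), which became a call without BMDM of mouse 2 (0.0441), PLF of mouse 2 (0.0461) or PLF of mouse 4 (0.0438). The pools were at -1.57 ± 0.34 relative to BALF (0.00221) and at -0.26 ± 0.35 relative to mexAM (0.792). Its protein-coding neighbour on the same strand, Spryd7, fell too, with 25.1 ± 5.38 CPM in mexAM and 78.8 ± 13.5 CPM in BALF (log2 -1.86 ± 0.24, 1.80e-05). In BALF over BMDM, where Dleu2 was not called, Spryd7 was higher (1.32 ± 0.23, 1.99e-04), and in BALF over PLF, where Dleu2 was lower, it was at 0.57 ± 0.23 (0.0542). Trim13, which overlaps one end of Dleu2 on the other strand, had 139 counts in all libraries against 904 for Dleu2. Trim13 was lower in mexAM than in BALF (log2 -2.16 ± 0.58, edgeR adjusted p = 0.00994) and higher in BALF than in BMDM (1.91 ± 0.58, 0.0150). It was called in no other comparison.

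The share of counted reads that fell outside annotated genes was lower in cultured alveolar macrophages than in the other libraries. It was 11.2% at passage 13 and 12.4% at passage 8 of pool 1, and 10.6% at passage 10 and 10.7% at passage 5 of pool 2. In mexAM it was 15.5%, 13.7% and 13.3%, in BALF 19.9%, 20.2% and 21.4%, in PLF 29.4%, 27.6% and 29.9% and in BMDM 20.8%, 28.3% and 25.0%. The difference was -6.33 percentage points between mexAM and BALF, -10.5 between mexAM and BMDM, -14.8 between mexAM and PLF, -8.49 between BALF and PLF and -3.02 between summed pools and mexAM. Each had an exact two-sided permutation p of 0.1, the smallest that 3 libraries against 3, or 2 against 3, allow. BALF minus BMDM was -4.19 points and PLF minus BMDM 4.30 points (exact permutation p = 0.2 each).

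**Figure D3:**
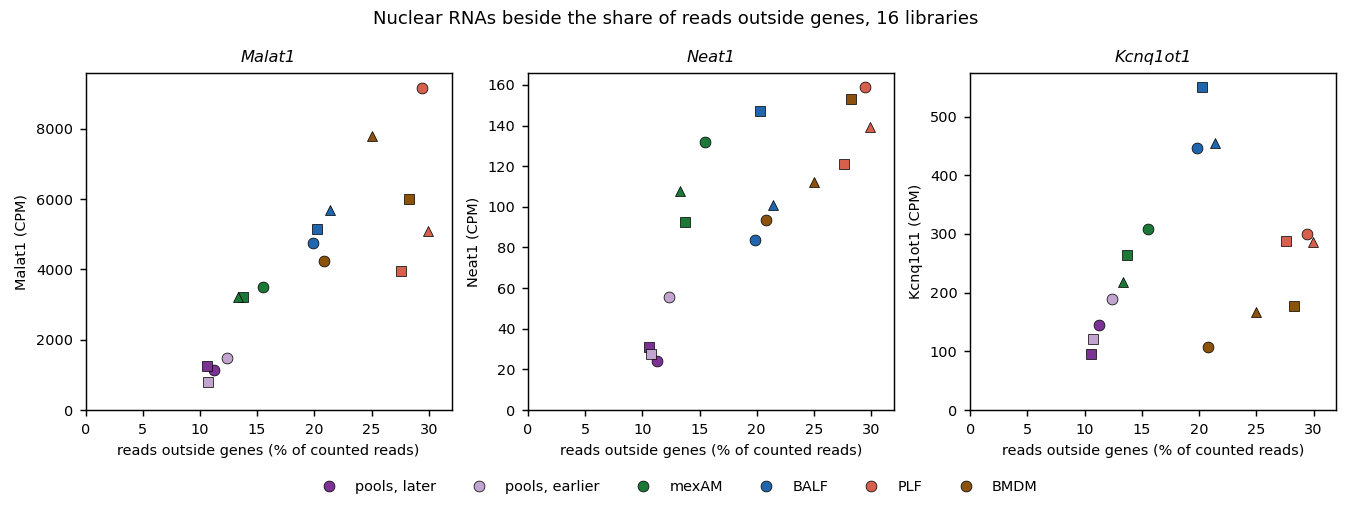
Levels of Malat1, Neat1 and Kcnq1ot1 (CPM, vertical axes) beside the share of counted reads outside genes (percent, horizontal axes) in the 16 libraries, coloured by group, with circles for mouse or pool 1, squares for mouse or pool 2 and triangles for mouse 4. The pools and mexAM sit at the low end of the share and of Malat1, while for Kcnq1ot1 the BALF libraries, at shares of 19.9% to 21.4%, stand above PLF at 27.6% to 29.9%.

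Over the group means, Malat1 had the same order as this share, with pools lowest, then mexAM, BALF, BMDM and PLF, though Malat1 overlapped among the last 3. That order rests on 1 library and on unscaled CPM: PLF of mice 2 and 4, at 3961 and 5092 CPM, lay below the BALF mean of 5198 CPM, and the TMM-scaled change was 0.07 in BALF over BMDM and 0.00 in BALF over PLF. Kcnq1ot1 did not follow it, being highest in BALF. Within the 4 groups of mice 1, 2 and 4, the library with the highest share also had the most Malat1 in 2 of 4 groups, the most Neat1 in 2, the most Kcnq1ot1 in 2 and the most Snhg1 in 3. For Gas5, Snhg8, Snhg12, Epb41l4aos and Dleu2 it did so in 1 group each. With 3 libraries in a group such a match is common without any link, and the same count was not made over all genes. With the share as a covariate in the edgeR fit, none of the 9 RNAs was called between mexAM and BALF, against 4 without it, and over all genes 514 were called, against 3006. Malat1 in mexAM was then at -0.0025 relative to BALF (edgeR adjusted p = 1.00), at 0.52 relative to BMDM (0.780) and at 0.89 relative to PLF (0.701). Most pairs of groups do not overlap in this share, so the share and the cell type cannot be told apart there. Between BALF and BMDM, whose shares overlap, Kcnq1ot1 was at 2.46 with the covariate (4.81e-06). Between PLF and BMDM, whose shares also overlap, it was at 0.58 and no longer called (0.0967). With the outside reads counted into the library totals, Malat1 averaged 2824 CPM in mexAM, against 4105 CPM in BALF, and Neat1 94.3 CPM in mexAM, against 87.4 CPM in BALF. Malat1 was then at -0.54 in mexAM relative to BALF and no longer called (edgeR adjusted p = 0.1506).

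Proteins of the bodies in which Malat1 and Neat1 sit were described by 2 lists. Of 20 speckle and SR splicing proteins, 1 rose and 4 fell in mexAM relative to BALF (median log2 0.12, all genes 0.01), where 30.0% of all genes were called. Srsf2, an SR protein that marks speckles, had 238 ± 29.4 CPM in mexAM and 388 ± 80.1 CPM in BALF, and Srsf6, another SR protein, 154 ± 15.7 CPM in mexAM and 77.1 ± 23.1 CPM in BALF (SD, n = 3 each). Of the 20, 9 were higher and none lower in PLF than in BMDM, where 36.5% of all genes were called. In mexAM 1 was higher and 8 were lower than in PLF, where 57.9% of all genes were called. Clk1, a kinase of SR proteins, was at log2 -2.03 ± 0.18 there. Of 15 tested paraspeckle proteins, only Hnrnph3 was called in mexAM relative to BALF (1.29 ± 0.33). Sfpq, a core paraspeckle protein, had 173 ± 15.1 CPM in mexAM, against 452 ± 51.9 CPM in PLF. In the same comparison Pspc1 (log2 -0.98) and Rbm12 (-0.87) were also lower in mexAM, while Smarca4 was higher (0.72 ± 0.24). These are the called paraspeckle genes with the largest changes there, where 57.9% of all genes were called. Between pools and mexAM, where Neat1 was called, none of the 15 paraspeckle and none of the 20 speckle proteins was, and 0.698% of all genes were.

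Of 9 tested long noncoding RNAs outside the set, 2 rose and 2 fell in mexAM relative to BALF, where 30.0% of all genes were called. Lncpint, a p53-induced RNA, had 1.45 ± 0.43 CPM in mexAM and 30.6 ± 7.21 CPM in BALF (log2 -4.53 ± 0.48), and Mir22hg, the host of miR-22, 32.5 ± 0.70 CPM in mexAM and 134 ± 22.0 CPM in BALF. Peg13, an imprinted RNA, rose by 0.77 ± 0.26. Of 16 factors of nuclear RNA decay, which trim and degrade noncoding transcripts, none was called between mexAM and BALF. In mexAM 2 were higher and none lower than in PLF, where 57.9% of all genes were called, 28.4% higher and 29.6% lower. Among the 2 was Exosc5, an exosome subunit, at 43.6 ± 12.1 CPM in mexAM and 13.0 ± 3.40 CPM in PLF.

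Between the passages of the pools none of the 9 RNAs was called (edgeR), where 0.00950% of 10527 genes were, and DESeq2 also called none. Among the 9 the largest rises at the later passage were Snhg12 at 1.40 ± 0.60 (edgeR, adjusted p = 0.505) and Snhg1 at 0.75 ± 0.35 (0.545). Kcnq1ot1 had a later over earlier ratio of 0.771 in pool 1 and 0.792 in pool 2. The 5 hosts and Dleu2 had ratios above 1 in both pools, from 1.07 for Snhg8 in pool 2 to 5.34 for Snhg12 in pool 1. The last rests on 23 counts at passage 13 and 3 counts at passage 8, with an exact 95% counting interval from 1.61 to 27.8. Such intervals included 1 in both pools for Gas5, Epb41l4aos and Dleu2. They also did in pool 1 for Snhg1 and in pool 2 for Snhg8, Snhg12 and Kcnq1ot1. With 2 pools, whose passages differ, these ratios have no check by replicate. They are of unscaled CPM, and with library totals the median log2 change of all genes was 0.076 at the later passage. The share of all genes with a ratio above 1 in both pools was not computed.

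**Figure D4:**
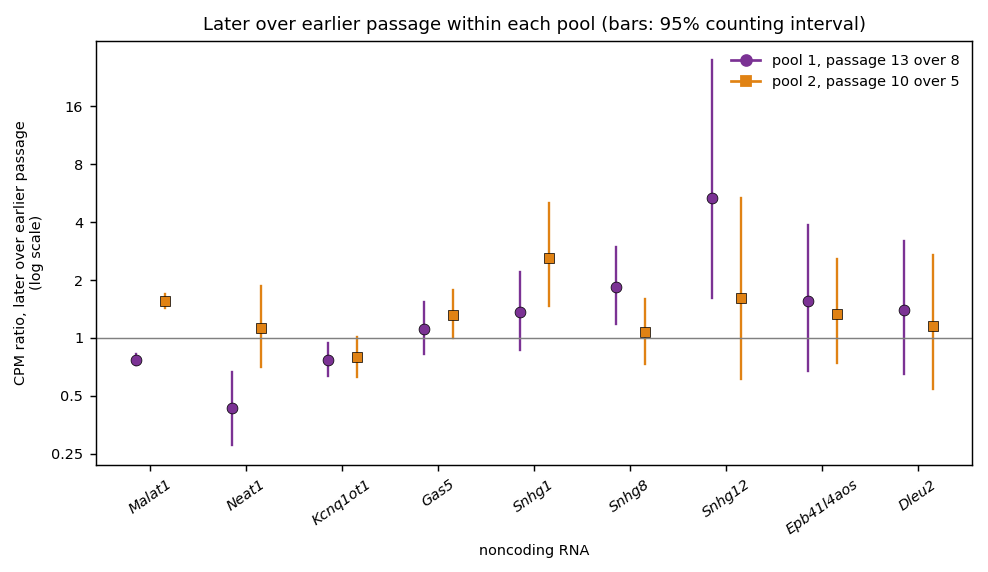
Ratio of CPM at the later over the earlier passage (log scale) of each noncoding RNA within pool 1 and within pool 2, with the exact 95% interval of the counts, which covers counting error only. Malat1 lies below 1 in pool 1, at 0.773, and above 1 in pool 2, at 1.56.

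The genes whose log2 CPM followed each RNA most closely over the 16 libraries were sought among 7743 genes. These correlations only describe the libraries, which cluster by cell type and share depth and composition. For Neat1 the closest was Malat1 (Pearson r = 0.92), then Rbm25 and Srsf11 (0.89 each), which code for splicing proteins. For Malat1 they were Prpf38b (0.94), Nudcd3 (0.93) and Ppp4r1 (0.92), and for Kcnq1ot1 Gdap10 (0.91), Stk35 (0.89) and Prr13 (0.86). For Dleu2 they were Zfp644, Nsd3 and Smg1 (0.97, 0.97 and 0.96), and for Gas5 Lpar1 (0.98), Grap and St8sia6 (0.97 each). Snhg8 was closest to the ribosomal protein gene Rps4x (0.92), Snhg1 to Hnrnpdl (0.89), Epb41l4aos to Msi2 (0.89) and Snhg12 to Gtf3c2 (0.86). Over the 12 libraries of mice 1, 2 and 4, Lpar1, Rps4x and Zfp644 stayed the closest of Gas5, Snhg8 and Dleu2, and the closest of the other 6 RNAs were other genes.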

How the data were processed

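Counts per gene of 16 libraries were used as the authors deposited them: raw read counts by Ensembl gene, with rows for reads outside genes and ambiguous reads. Per the labels' protocols, libraries were made from 150 ng RNA with the QuantSeq 3′ FWD kit and a UMI module, with 15 amplification cycles and 65 bp single-end reads. The build is GRCm38, per the submitters' processing notes. No aligner, counter, strand setting or collapsing of UMIs is named (not given in the sources used here).

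The members and lists were chosen with earlier results of these data known. Gene IDs were named with GENCODE M21, which named 47224 of 47643, and 8 symbols of the lists are not analysed here. Rows that name no gene (reads outside genes, 10.6% to 29.9% of counted reads, and ambiguous reads) stayed out of library sizes. CPM were computed over counts in genes. Tests were edgeR 4.0.16 quasi-likelihood tests in R 4.3.3 (filterByExpr, TMM, robust), with Benjamini-Hochberg adjustment over all genes tested, on 12 libraries of mice (10011 genes), 14 columns with the passages of each pool summed (10602 genes) or 16 libraries (10527 genes). A gene was called at an adjusted p under 0.05. The script was checked on simulated counts. DESeq2 1.42.0, other scalings, no filter, only the groups compared, mouse or pool as a block, the share of reads outside genes as a covariate, and each library left out were the alternatives. A further alternative left out the mitochondrial transcripts and Gm42418. The share was compared by exact two-sided permutation tests (scipy 1.17.1). Intervals cover counting error only.

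Named list genes were up to 4 called genes per list and comparison with the largest change and at least 10 CPM in the higher group. The genes most like each member were the 3 with the highest r over 16 libraries. Neighbours came from the annotation. Mouse numbers mark the same animal in 4 groups, per the labels. The correlation of same-mouse deviations ranged from -0.121 to 0.221 over 18 pairs, with 2 above 0.1, and was 0.0570 between the passages of a pool.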

Additional observations from a re-analysis of the deposited data

Results flagged for a closer look

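Malat1 moved in opposite directions between the passages of the pools. Its later over earlier ratio was 0.773 in pool 1 (exact 95% counting interval 0.721 to 0.829) and 1.56 in pool 2 (1.43 to 1.69), and pool 1 minus pool 2 came to -1.01 on the log2 scale. The difference between the pools was not tested, since each passage of a pool has 1 library.

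Inside Epb41l4aos lies the snoRNA gene Gm23639, which took 55 counts in the 16 libraries while the other 24 snoRNA genes inside the hosts took none. It had 3.75 ± 0.40 CPM at the later and 8.08 ± 0.53 CPM at the earlier passages of the pools (SD, n = 2 each), against 1.98 CPM in mexAM, 2.17 CPM in BALF, 0.205 CPM in PLF and 0.390 CPM in BMDM. That order differs from the order of Epb41l4aos itself, which was highest in PLF.

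A further 3 annotated transcripts inside Dleu2 on its strand also held counts outside the gene's own total. Gm37420 had 382 counts, Gm37472 had 354 and Gm27010 had 55. Gm37420 averaged 4.00 CPM in mexAM, 10.8 CPM in BALF, 38.1 CPM in PLF and 25.0 CPM in BMDM, and Gm37472 averaged 5.02 CPM in mexAM, 12.9 CPM in BALF, 35.8 CPM in PLF and 20.2 CPM in BMDM. Both had the order of Dleu2.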

How the results depend on the processing

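Of the recomputed changes of the 9 RNAs in the 9 comparisons, 1072 kept their sign and their side of the threshold, 57 lost a call and 19 gained one. A further 74 changed sign without a call in either fit, with values such as Neat1 in mexAM relative to PLF (1.49 with the covariate, -0.31 without). Of all changes of sign, 22 came from other library totals and 32 from leaving out a library. Called values that changed sign were Malat1 in mexAM relative to BMDM (0.52) and to PLF (0.89) with the share of reads outside genes as a covariate. That covariate, which differs between the groups, gave 514 calls over all genes between mexAM and BALF, against 3006 without it (0 of the 9 RNAs), 999 against 4462 between mexAM and BMDM (1), 624 against 5800 between mexAM and PLF (1), 1400 against 4030 between BALF and PLF (3), 2330 against 3653 between PLF and BMDM and 4510 against 7098 for any difference. Between pools and mexAM, with 74 calls and 1 of the 9, there were 177 and 3 with DESeq2, 380 and 3 with no filter, 11 and 0 with the earlier passages, 188 and 3 with the later passages, and 2 of the 9 with library totals or with totals that include outside reads. Totals with outside reads gave 3 of the 9 between mexAM and PLF, where the calls of Malat1, Snhg1, Snhg12 and Epb41l4aos ended. Between passages, with 1 call, DESeq2 gave 33 and no filter 80. The cause was not tested.

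With 1 library left out, calls over all genes ranged from 2290 to 2738 between mexAM and BALF (2 to 3 of the 9), 3751 to 4417 between mexAM and BMDM (3 to 5), 5231 to 5642 between mexAM and PLF (5 to 7), 6 to 99 between pools and mexAM (0 to 1), 1604 to 2425 between pools and BALF (4 in each) and 0 to 4 between passages (0 in each). The lowest count between pools and mexAM, 6, was without pool 2.

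With library totals the median log2 change of all genes, between -0.03 and 0.01 with TMM, stood at 0.22 in mexAM over BALF, -0.31 in BALF over BMDM, -0.26 in BALF over PLF and 0.20 in pools over BALF. Of the calls, 67.3% were then higher in mexAM than in BALF (50.6% with TMM), 30.7% in BALF than in BMDM (48.5%), 33.3% in BALF than in PLF (48.4%) and 67.6% in pools than in BALF (52.5%). With outside reads in the totals the medians were 0.33 in mexAM over BALF (74.4% higher), -0.23 in BALF over BMDM (35.3%), 0.22 in mexAM over PLF (59.7%, against 49.0%), -0.14 in PLF over BMDM (39.6%, against 49.4%) and 0.37 in pools over BALF (77.8%). With library totals Snhg1 was called in mexAM over BALF (0.85, edgeR adjusted p = 0.0235).

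With mouse as a block, 2835 genes were called between mexAM and BALF (3 of the 9), 4338 between mexAM and BMDM (4) and 5633 between mexAM and PLF (7). Among the 9 RNAs the block ended the calls of Malat1 against BALF and BMDM and changed no other. No paired analysis was possible between pools and mexAM or BALF because a pool number is not a mouse. At these depths a level of a few CPM rests on few counts, as in Snhg12 at 3 counts.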
